A study of Mus musculus with 4 samples.

Results

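The MYC, MAX and MXD network was examined in leukemia-initiating cells (LICs) of a mouse acute myeloid leukemia. Its 10 genes, Myc, Mycn, Max, Mxd1, Mxi1, Mxd3, Mxd4, Mnt, Mga and Mlx, were chosen by name, as MYC and the antagonists that share MAX, and all 10 were found by NCBI gene number among the 27179 genes of the expression table. RNA came from 4 libraries of sorted bone marrow cells, 2 labelled WT (wild type) and 2 labelled CD274-null (CD274-/-). The labels give all as C57BL/6 with an age of 6 weeks, and all carried leukemia started by a retroviral MLL-AF9 fusion oncogene in lineage-negative fetal liver cells, which were transplanted into lethally irradiated C57BL/6 recipients. The CD274-null cells derived from knockout mice of CD274 (PD-L1) on that background. The labels say only that leukemia stem cells (LSC) were sorted, and the study's methods define LICs as Mac-1+/c-Kit+. The study's section on RNA sequencing speaks instead of RNA isolated from tissue, and this difference is not explained there. The transplantation round is not stated. Nothing in the labels says that the replicates were separate mice, so p-values here measure the spread between these libraries only.

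MYC proteins activate growth genes, but they bind DNA only as dimers with MAX. The MXD proteins and MNT compete for the same MAX, bind the same DNA site, the E-box, and bring in the SIN3 corepressor with its histone deacetylases. In normal myeloid cells, Myc is high in dividing progenitors and MXD1 is known to accumulate as the cells mature into granulocytes. MGA joins MAX to a noncanonical Polycomb complex, while MLX is the partner of a parallel branch that senses sugar through MLXIP and also binds some MXD proteins and MNT.

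What makes these genes a family is a short basic region that reads the E-box. The 27 bases (9 codons) that encode its core are shown 5′ to 3′ from GENCODE transcripts of GRCm38, with the codons of the histidine, the glutamate and the last arginine, the residues that contact the E-box, in capitals.
Myc: CACaacgtcttgGAAcgtcagaggAGG
Mycn: CACaacatcctgGAGcgtcaacgcCGG
Max: CATaatgcactgGAAcgaaaacgtAGG
Mxd1: CACaatgaaatgGAAaagaacaggCGT
Mxi1: CACaatgagttgGAAaagaaccgaCGA
Mxd3: CACaacgagctgGAGaagcgcaggAGA
Mxd4: CACaacgaactaGAAaagcacagaCGA
Mnt: CACaacaaattgGAGaagaacaggAGG
Mga: CACactgccaatGAGcggcgtcggCGT
Mlx: CACactcaggctGAAcagaagagaAGG
The sequences were found by the pattern of those residues, so their presence is no result. Between members, 11 to 22 of the 27 bases were identical, with the highest count between Mxd1 and Mxi1. The stretch lay within a single exon in 5 members, for Myc at chr15:61989663-61989689 and for Max at chr12:76953232-76953258. In the other 5, Mxd1, Mxi1, Mxd3, Mxd4 and Mnt, an intron between exons 3 and 4 of the transcript split it. Those 5 are the members that recruit SIN3. The core of their SIN3 interaction region, 9 codons in exon 1, was as follows, on chromosomes 6, 19, 13, 5 and 11.
Mxd1: ctgctggaggcggccgactacctggag
Mxi1: ctgctcgaggcagccagctacctggag
Mxd3: ctgctgcaggcagcggagttcctggag
Mxd4: ctgttggaggcggccgagtacctggag
Mnt: ctactggaggcggcccgcttcctggaa
Here 19 to 25 of 27 bases were identical between members, the most between Mxd1 and Mxd4. For Mxi1 the stretches come from different transcripts, Mxi1-202 for the basic region and Mxi1-201 for the SIN3 region. A value per gene does not tell such transcripts apart. Despite this likeness, no stretch of 50 bases, about the length of a read, was shared between any members' annotated transcripts, so a read of that length belongs to at most 1 of the 10 by its sequence.

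Values are FPKM (fragments per kilobase of gene, scaled to the mapped reads of a library), computed by the authors, and may be compared between genes because they are per length. The number of reads behind a value was recovered from ratios within the table, and the recovered reads summed to between 8184732 and 10802575 per library. The deleted gene did not tell the groups apart. Cd274 had an FPKM of 2.80 and 0.945 in WT, against 1.43 and 2.29 in CD274-null, and a value per gene does not show which exons the reads came from. WT and CD274-null below therefore mean the libraries labelled so, always as replicate 1 and replicate 2 in that order, and directions rest on the labels alone. The markers of the sort were present in each library, with an FPKM of at least 100.2 for Itgam (Mac-1) and of at least 6.59 for Kit, and Hoxa9, a gene that MLL-AF9 keeps on, lay between 71.3 and 75.8. Of the B and T cell markers that define those cells, Ms4a1 and Cd3e reached at most 0.1575. Igkc, an immunoglobulin light chain, was at 8.64 and 7.98 in WT, against 214 and 189 in CD274-null. The other markers that differed by more than 1.5-fold with an unadjusted p under 0.01 in limma were Jchain of plasma cells (0.370 and 0.514, against 12.26 and 10.46), Mpo of myeloid progenitors (444 and 403, against 1427 and 925), Nkg7 of cytotoxic cells (32.4 and 11.7, against 67.2 and 85.7) and Vcam1 of macrophages (117 and 92.3, against 53.7 and 59.85). The part of these differences in the results was not tested.

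Myc was the most abundant member, and no member passed the test between the groups. With limma on log2(FPKM + 0.5), the name candidate was given to a gene that differed by more than 1.5-fold with an unadjusted p under 0.01, as the study's own thresholds have it. Of the 13230 genes tested, 480 or 3.63% were candidates, 2.39% higher (316 genes) and 1.24% lower (164 genes) in CD274-null. The split was 253 to 210 with quantile normalization. Mycn was too low to be tested, and of the other 9 members 0 were candidates and 0 had an unadjusted p under 0.05, against 13.7% of all genes. A voom fit of the recovered reads and a linear model without moderation also made 0 of the 9 a candidate. The adjusted p of the members lay between 0.514 and 0.938 in limma with Benjamini-Hochberg adjustment, where 0.0756% of all genes were under 0.05. The groups did not overlap for 3 of the 9 members, Myc, Mxi1 and Mlx, which is 33.3% of them, against 47.3% of all genes. Of these, 1 member was higher and 2 were lower in CD274-null, against 25.6% and 21.8% of all genes. The log2 fold change was above 0 in 6 of the 9, as in 51.1% of all genes. The median log2 fold change of the 9 was 0.08, and that of all tested genes 0.01.

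**Figure D1:**
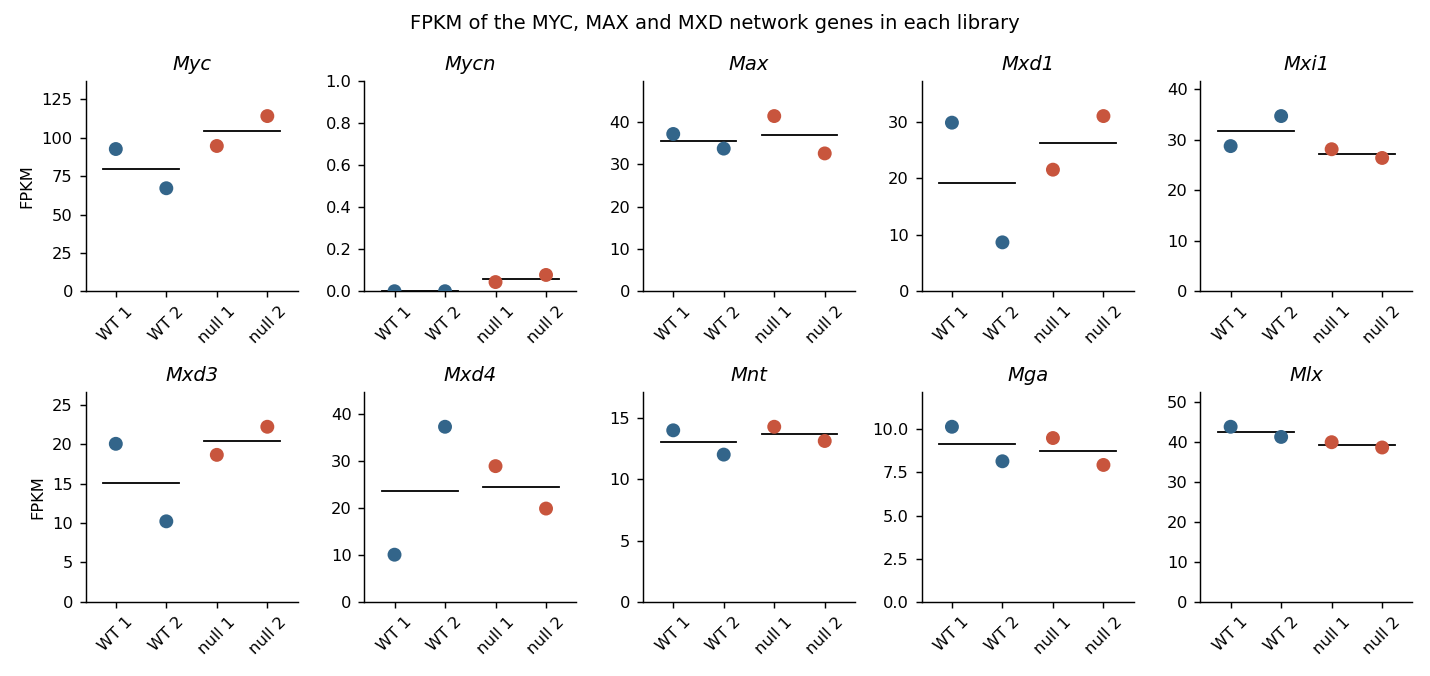
FPKM of the 10 genes in each library, with WT in blue, CD274-null in red (null 1 and null 2) and the mean of each group as a black line; each panel has its own linear axis from 0. Mxd1, Mxd3 and Mxd4 are spread most within WT, Mxd1 at 29.9 and 8.66 and Mxd4 at 10.04 and 37.2, while Mnt and Mlx are nearly level.

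Among the activators, Myc (NCBI gene 17869, chr15:61985341-61990361) had an FPKM of 92.7 and 67.1 in WT, against 94.7 and 114 in CD274-null. WT replicate 2 was the low library, and WT replicate 1 and CD274-null replicate 1 were almost level. The groups did not overlap, with means of 79.9 ± 18.1 (SD, n = 2) and 104 ± 13.8 (SD, n = 2). Its log2 fold change was 0.40 with a 95% interval from -0.20 to 0.99 (limma, adjusted p = 0.514). The mean over all 4 libraries placed Myc above 93.1% of the tested genes. Between 1640 and 2727 reads lay behind each value, and the exact Poisson interval in WT replicate 2, from 63.9 to 70.5, did not reach that of WT replicate 1, from 89.2 to 96.4. The replicates labelled WT thus differed by more than counting error, which is all that such intervals cover. Mycn (NCBI gene 18109, chr12:12936093-12941836), the MYC paralog of neural and early progenitor cells, was at 0 in both WT libraries, against 0.0436 and 0.0774 in CD274-null, from 0, 0, 1 and 2 reads. All 4 values lie under the level of 3 reads, which was 0.0999 to 0.131 FPKM, so no fold is given. Of the pair, only Myc was above the level that such counts can show.

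Max, the common partner (NCBI gene 17187, chr12:76937269-76962323), had an FPKM of 37.2 and 33.8 in WT, against 41.5 and 32.6 in CD274-null. The CD274-null pair enclosed the WT pair. This gave a log2 fold change of 0.05, with a 95% interval from -0.49 to 0.60 (limma, adjusted p = 0.938). Max was below Myc in every library, and the FPKM of Myc was 2.49 and 1.99 times that of Max in WT, against 2.28 and 3.50 times in CD274-null. The summed FPKM of Myc and its 6 competitors (Mxd1, Mxi1, Mxd3, Mxd4, Mnt and Mga) was 5.202 to 7.197 times that of Max over the 4 libraries. RNA levels do not give protein levels.

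Of the repressors, Mxd1 and Mxd4 varied most, and between the WT libraries they went opposite ways. Mxd1 (NCBI gene 17119, chr6:86647044-86669234), the MXD protein linked to granulocyte maturation, had an FPKM of 29.9 and 8.66 in WT, against 21.5 and 31.0 in CD274-null. Mxd4 (NCBI gene 17122, chr5:34176580-34187710), a relative found in resting and differentiated cells, had 10.04 and 37.2 in WT, against 28.9 and 19.8 in CD274-null. WT replicate 2 was the lowest of the 4 for Mxd1 and the highest for Mxd4, and WT replicate 1 was the lowest for Mxd4. The CD274-null libraries lay between the WT libraries for Mxd4, while for Mxd1 CD274-null replicate 2 was just above WT replicate 1, so the groups overlapped for both genes. The log2 fold change was 0.66 for Mxd1, with a 95% interval from -0.68 to 2.0 (limma, adjusted p = 0.621). For Mxd4 it was 0.29, from -1.12 to 1.70 (limma, adjusted p = 0.855). These are the widest intervals of the 9 members.

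The difference between the libraries labelled WT was 3.45-fold for Mxd1 and 3.71-fold for Mxd4, larger than that of 96.9% and 97.4% of the tested genes on the log2(FPKM + 0.5) scale. Over all tested genes, 11.4% differed by more than 1 on that scale within WT, and 6.61% within CD274-null. Mxd1 rested on 1611 and 411 reads, and its exact Poisson intervals of 28.4 to 31.4 and 7.84 to 9.54 FPKM were far apart. Mxd4 rested on at least 137 and 447 reads. Those reads are lower bounds: they imply a gene length of 1216 bases, while the longest coding Mxd4 transcript has 3872. Between the CD274-null libraries the same genes differed by 1.44-fold and 1.46-fold, at the 76.7th and 77.6th percentile of the tested genes. In 8 of the 9 members the WT libraries lay farther apart than the CD274-null libraries, Max being the exception.

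Transcripts of mature neutrophils differed between the same libraries. The summed FPKM of 10 neutrophil markers (Camp, Ltf, Ngp, Lcn2, Mmp8, Mmp9, S100a8, S100a9, Cxcr2 and Retnlg) was 43480 and 8796 in WT, against 18350 and 31400 in CD274-null, and all 10 markers were tested with 0 candidates. Mxd4 was lowest where this sum was highest and highest where it was lowest, and Mxd1 was lowest where the sum was lowest. In bulk RNA, a different share of such cells and a different amount of RNA per cell cannot be told apart, and the part of neutrophil transcripts in the Mxd1 and Mxd4 values was not tested. The study's methods define LICs as Mac-1+/c-Kit+, but the labels do not name the sort markers, and the purity of these sorts is not given. WT replicate 1, with the highest neutrophil sum, had the lowest Kit, at 6.59 FPKM against 18.2 in WT replicate 2 and 16.2 and 19.5 in CD274-null. It also had the lowest Cd34, a progenitor marker, at 4.32 against 31.7, 14.02 and 28.9 in the same order, and the part of these differences was not tested either. WT replicate 2 also had the highest summed FPKM of the erythroid markers (10 listed, 9 in the table), 55.7 against at most 4.92 in the other libraries. Nearly all of the 55.7 came from the globins Hba-a1 (18.1), Hba-a2 (9.42) and Hbb-bs (26.9). Among the low erythroid markers, Alas2 (0.794) and Klf1 (0.384) were also highest there, Klf1 only just above WT replicate 1 (0.338). Epor and Ermap went the other way, at 0.378 and 0.228 in WT replicate 1 against 0.107 and 0.0216 in WT replicate 2. Slc4a1, a membrane protein of red cells, was at 0 in all 4 libraries, and the part of erythroid transcripts in the Mxd1 and Mxd4 values was not tested.

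**Figure D2:**
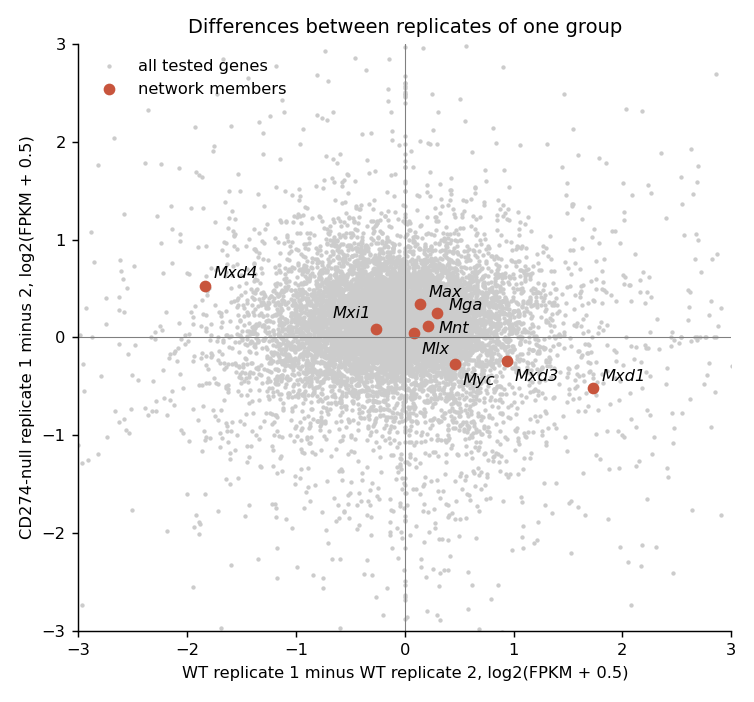
Difference between the replicates of each group in log2(FPKM + 0.5), WT on the horizontal and CD274-null on the vertical axis, for the 13230 tested genes (grey) and the 9 tested members (red); 126 genes lie beyond the axes, which end at 3. Mxd1 and Mxd4 lie at 1.73 and -1.84 on the WT axis and the other members closer to 0, with Mxd3 at 0.94.

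Mxd3 (NCBI gene 17121, chr13:55325170-55329900), an MXD protein known from cells in S phase, was at 20.03 and 10.2 in WT, against 18.6 and 22.2 in CD274-null. WT replicate 2 was the low library, as for Myc and Mxd1, and the groups overlapped. Its log2 fold change was 0.49, with a 95% interval from -0.36 to 1.34 (limma, adjusted p = 0.558). Mxi1 (NCBI gene 17859, chr19:53310128-53373293), also called MXD2, had 28.8 and 34.7 in WT, against 28.1 and 26.4 in CD274-null. Here the groups did not overlap, but WT replicate 1 and CD274-null replicate 1 were nearly equal. The log2 fold change was -0.21, from -0.74 to 0.32 (limma, adjusted p = 0.692).

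The summed level of the 4 MXD genes was 88.7 and 90.8 FPKM in WT, against 97.2 and 99.5 in CD274-null, with a mean of 94.03 ± 5.11 (SD over 4 libraries). The groups did not overlap, and an exact permutation test gave a two-sided p = 0.333, the smallest that 2 libraries against 2 can give. The make-up of the sum differed between libraries. Mxd1 gave 33.7% of it in WT replicate 1 and 9.54% in WT replicate 2, whereas Mxd4 gave 11.3% and 41.0%. In CD274-null, Mxd1 gave 22.2% and 31.2% and Mxd4 29.7% and 19.95%. Mxi1 held between 26.5% and 38.2% in all 4 libraries. The most abundant MXD gene was Mxd1 in WT replicate 1 and CD274-null replicate 2, and Mxd4 in WT replicate 2 and CD274-null replicate 1. The counting interval of the leading gene was clear of that of Mxi1 in CD274-null replicate 2 alone, and overlapped it in the other 3 libraries.

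**Figure D3:**
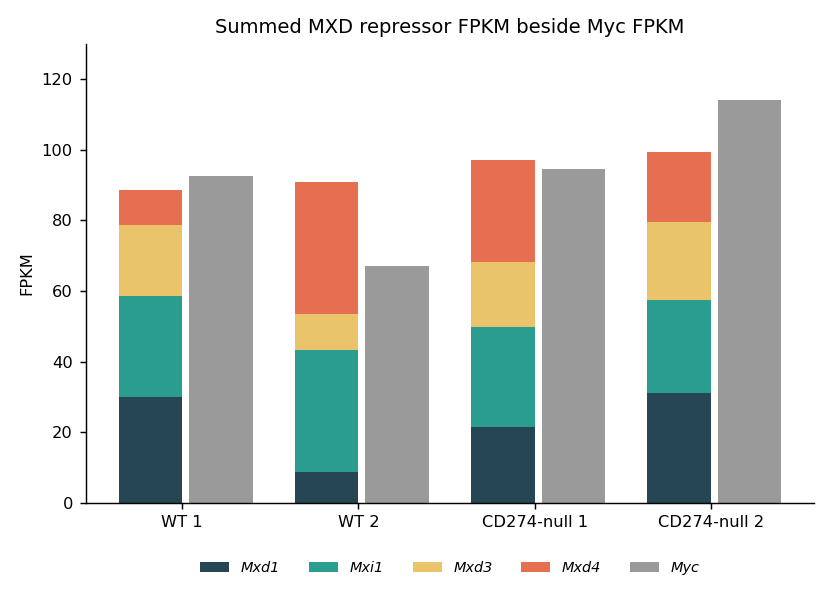
FPKM of Mxd1, Mxi1, Mxd3 and Mxd4 stacked for each library, beside the FPKM of Myc (grey bar). The stacks reach 88.7, 90.8, 97.2 and 99.5, while Myc runs from 67.1 in WT replicate 2 to 114 in CD274-null replicate 2.

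Set against Myc, the summed MXD level was 0.957 and 1.35 times that of Myc in WT, against 1.03 and 0.871 times in CD274-null. The groups overlapped, and the log2 difference between summed MXD and Myc was 0.18 ± 0.35 (SD, n = 2) in WT and -0.08 ± 0.17 (SD, n = 2) in CD274-null (exact permutation test, two-sided, p = 0.667). WT replicate 2 stood highest, with the lowest Myc of the 4 and an MXD sum within the range of the others. The log2 difference between Mxd1 and Mxd4 was 1.53 and -2.04 in WT, against -0.41 and 0.63 in CD274-null. The group means were -0.26 and 0.11, and both ends of the range were WT libraries (exact permutation test, two-sided, p = 1.0).

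Mnt and Mga, the other repressors, and Mlx complete the network. Mnt (NCBI gene 17428, chr11:74830806-74845725), the broadly expressed MAX partner that opposes MYC in dividing cells, was at 14.0 and 12.01 in WT, against 14.3 and 13.1 in CD274-null. The groups overlapped, with a log2 fold change of 0.08 and a 95% interval from -0.50 to 0.65 (limma, adjusted p = 0.914). Mga (NCBI gene 29808, chr2:119872503-119970129), the scaffold of the Polycomb complex PRC1.6, was at 10.1 and 8.15 in WT, against 9.50 and 7.94 in CD274-null. Here too the groups overlapped, with a log2 fold change of -0.06 and a 95% interval from -0.72 to 0.60 (limma, adjusted p = 0.938). With each library corrected for GC content both signs turned, to -0.17 for Mnt and 0.12 for Mga, so no direction is read from either. Mlx (NCBI gene 21428, chr11:101086707-101092207) was at 43.8 and 41.2 in WT, against 39.9 and 38.6 in CD274-null. Its groups did not overlap, but they lay close, at 42.5 ± 1.798 (SD, n = 2) and 39.25 ± 0.928 (SD, n = 2), and the log2 fold change was -0.11, from -0.59 to 0.37 (limma, adjusted p = 0.835). Of the exonic bases of Mlx, 19.3% overlap the antisense gene Psmc3ip, and the library kit does not mark strand, so reads there cannot be told apart. The overlap with other genes was 6.06% for Mxd4, 4.43% for Mxd3 and 2.84% for Mxi1, and 0% for the other 6 members.

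**Figure D4:**
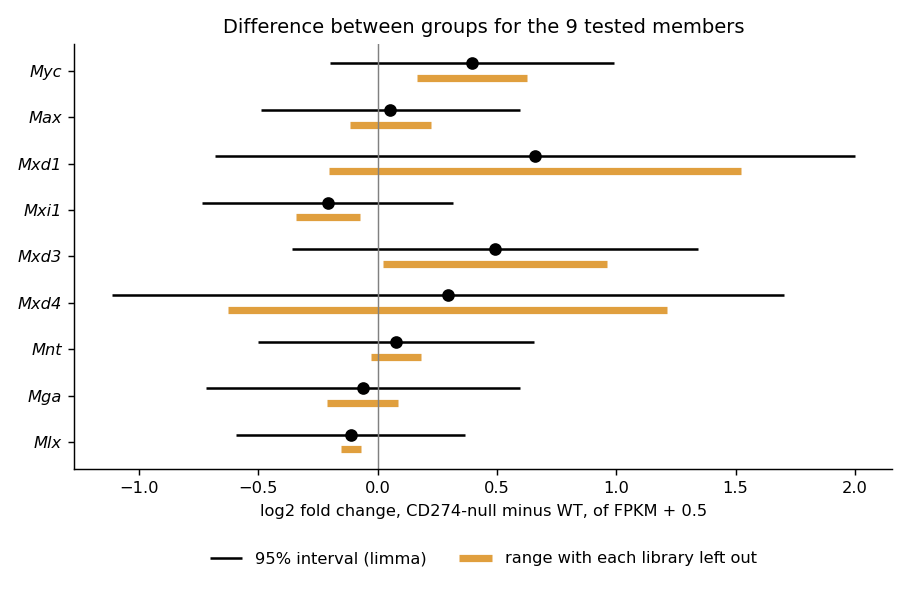
Log2 fold change of FPKM + 0.5 between CD274-null and WT for the 9 tested members, with the 95% interval of limma (black) and the range of the values when each library in turn is left out (orange). All 9 intervals include 0, and the ranges of Mxd1 (-0.20 to 1.53) and Mxd4 (-0.63 to 1.21) are the widest.

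In order of the mean over the 4 libraries, Myc (92.2 ± 19.3 FPKM, SD over 4 libraries) was followed by Mlx (40.9 ± 2.21), Max (36.25 ± 3.98), Mxi1 (29.5 ± 3.61), Mxd4 (24.0 ± 11.7), Mxd1 (22.8 ± 10.3), Mxd3 (17.8 ± 5.25), Mnt (13.35 ± 1.02) and Mga (8.93 ± 1.06). Only Myc against Mlx and Mnt against Mga had ranges that did not overlap. The other neighbours in this order overlapped in their ranges, and Mxd4 and Mxd1 changed places between libraries.

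The values of Mxd1, Mxd3 and Mxd4 turned on which WT library was kept. Without WT replicate 1, Mxd1 was a candidate with a log2 fold change of 1.53 (limma, adjusted p = 0.281), where 3.47% of the tested genes were candidates, 2.28% in that direction. Mxd3 was then at 0.96 (limma, adjusted p = 0.303) and Myc at 0.63 (limma, adjusted p = 0.348), and neither was a candidate. Without WT replicate 2, the log2 fold change was -0.20 for Mxd1 and 1.21 for Mxd4 (limma, adjusted p = 0.210), with 0 candidates among the members and 4.79% over all genes. In these fits the lone WT library is assumed to vary like the other group.

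The E-box CACGTG was searched in the members' promoters, windows of 300 bases from RefSeq (GRCm38.p6) that lie mostly before the start and reach a little past it. A promoter was listed for 9 of the 10 genes. The letters read the same on both strands. They occurred in 4 of the 11 promoters listed for these 9 genes, each in a different gene, and in 7.15% of all 32851 listed promoters of that length. The variant CACGCG, searched on both strands, occurred in 1 of the 11, that of Mga, and in 9.27% of all. The windows are shown because the members' own proteins bind this site, with the E-box in capitals.
Max, chr12:76962234-76962263, minus strand: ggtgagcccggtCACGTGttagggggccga
Mlx, chr11:101087238-101087267, plus strand: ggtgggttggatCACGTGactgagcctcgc
Mnt, chr11:74830789-74830818, plus strand: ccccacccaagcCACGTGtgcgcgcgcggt
Mxd4, chr5:34187912-34187941, minus strand: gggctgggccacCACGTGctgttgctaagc
Counted from the start, the E-box began at -3 in Max, at -40 in Mlx, at -123 in Mnt and at -219 in Mxd4. Max, Mlx and Mnt were among the steady members and Mxd4 the most variable, and a match of letters is a description and not a binding site.

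Genes that work with the network were followed in 8 lists of 124 genes, of which 118 were tested. Candidates were 2 of these, Paf1 and Ccnd2, or 1.69% against 3.63% of all tested genes, and 14 or 11.9% had an unadjusted p under 0.05, against 13.7%. By list, these 14 were 4 of 15 coactivators and cofactors, 4 of 49 MYC targets and 2 of 15 turnover genes. The others were 2 of 7 MLX and MLXIP targets, 1 of 9 MGA complex genes and 1 of 8 genes repressed by MYC. Paf1, a subunit of the PAF1 elongation complex that binds MYC, was at 37.9 and 42.4 in WT, against 65.4 and 70.9 in CD274-null. The log2 fold change was 0.76 (limma, adjusted p = 0.274). It was the only candidate of 15 tested coactivators and cofactors, whose median was 0.05, and it was no longer one when any of the 4 libraries was left out. Ccnd2, the cyclin D2 gene and a MYC target, was at 4.78 and 4.81 in WT, against 1.45 and 0.661 in CD274-null, a log2 fold change of -1.82 (limma, adjusted p = 0.251). It remained a candidate without CD274-null replicate 1, and not without any of the other 3 libraries. Its log2 fold change was -1.82 and -1.81 without WT replicate 1 and 2, and -2.19 and -1.44 without CD274-null replicate 1 and 2.

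Of the genes that MYC is known to activate, 49 of 50 were tested, mostly of ribosome assembly, nucleotide synthesis and translation. Apart from Ccnd2 none was a candidate, and 4 had an unadjusted p under 0.05. The log2 fold change was above 0 in 14 and below 0 in 35, against 48.9% of all tested genes below 0, and the list median was -0.17 against 0.01 for all genes. Within this list, the median deviation of a library from the mean over the 4 libraries was 0.40 and -0.24 on the log2 scale in WT, against 0.11 and -0.29 in CD274-null. The library with the most Myc, CD274-null replicate 2, thus had the lowest median of these targets, and WT replicate 2, with the least Myc, the next lowest. Of 8 tested genes that MYC represses, 7 had a log2 fold change above 0, against 51.1% of all tested genes, with a median of 0.29 and 0 candidates. Their median deviation per library was -0.15 and -0.18 in WT, against -0.12 and 0.46 in CD274-null, so only CD274-null replicate 2 was above the mean. The lowest p were those of Gadd45b and Ndrg2. Gadd45b, a growth arrest gene, was at 193 and 126.5 in WT, against 220.3 and 439.6 in CD274-null (limma, adjusted p = 0.3495). Ndrg2, a differentiation gene, was at 0.0401 and 0.683 in WT, against 5.19 and 0.559 in CD274-null, so the groups overlapped (limma, adjusted p = 0.449).

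The SIN3 and HDAC genes encode the corepressors that MXD proteins bring in. Of 12 tested genes of the SIN3 and HDAC complexes, 0 were candidates and 0 had an unadjusted p under 0.05 in limma, with a list median of -0.06. Their summed FPKM ran from 404 to 448. The lowest p were those of Suds3 and Rbbp7. Suds3, a SIN3 subunit, was at 40.2 and 31.9 in WT, against 49.25 and 49.5 in CD274-null (limma, adjusted p = 0.411). Rbbp7, a histone-binding subunit, was at 70.1 and 71.2 in WT, against 62.8 and 47.7 in CD274-null (limma, adjusted p = 0.509). Of 9 genes of the MGA complex, 0 were candidates, with a median of -0.12. Yaf2, an adaptor of that complex, was at 33.4 and 36.7 in WT, against 23.0 and 23.6 in CD274-null (limma, adjusted p = 0.333). Rnf2, its ubiquitin ligase, was at 20.9 and 24.8, against 17.85 and 15.1 (limma, adjusted p = 0.434). Of 15 tested genes of MYC turnover and regulation, 0 were candidates and the median was 0.12. Stub1, a ubiquitin ligase, was at 63.2 and 49.2 in WT, against 89.0 and 91.0 in CD274-null (limma, adjusted p = 0.303). Usp28, a deubiquitinase that protects MYC, was at 3.585 and 2.58, against 5.73 and 6.07 (limma, adjusted p = 0.339).

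In the parallel branch, Mlxip, the sugar-sensing partner of MLX also called MondoA, was at 16.1 and 14.0 in WT, against 21.6 and 17.9 in CD274-null (limma, adjusted p = 0.513). Usf1, another E-box factor of the same protein class, was at 22.5 and 38.1 in WT, against 38.2 and 45.4 in CD274-null (limma, adjusted p = 0.499). Of the 5 listed relatives 3 were tested, with 0 candidates and a median of 0.38. Of 7 tested target genes of MLX and MLXIP, 0 were candidates and the median was -0.03, and the 2 with the lowest p went opposite ways. Arrdc4, an arrestin that limits glucose uptake, was at 5.97 and 9.19 in WT, against 3.80 and 3.38 in CD274-null (limma, adjusted p = 0.323). Hk2, a hexokinase of glycolysis, was at 14.7 and 7.66 in WT, against 16.8 and 26.8 in CD274-null (limma, adjusted p = 0.353).

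**Figure D5:**
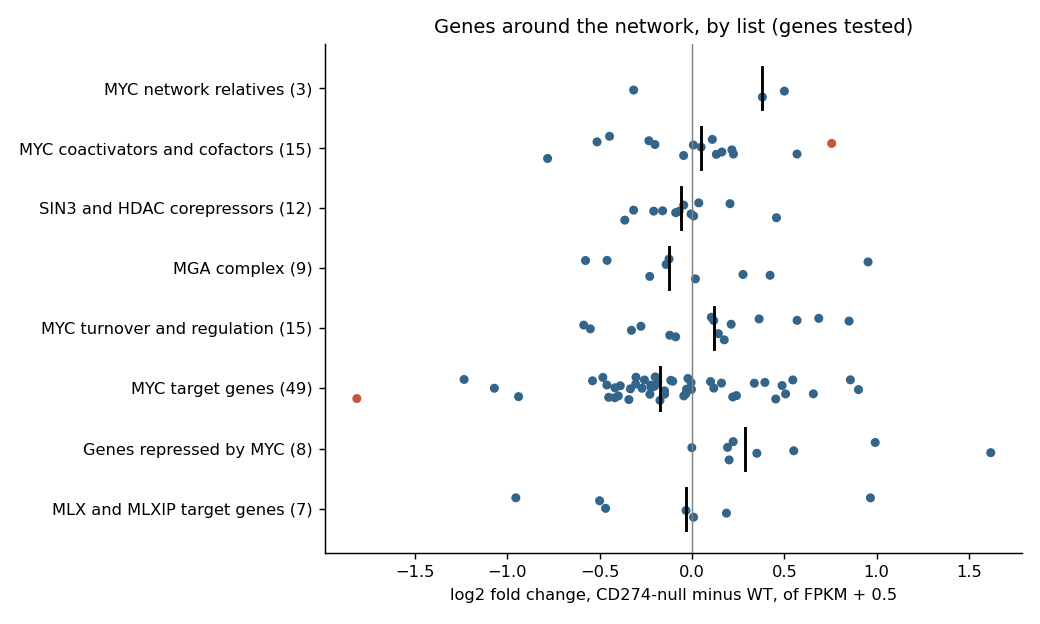
Log2 fold change of FPKM + 0.5 between CD274-null and WT for the tested genes of the 8 lists around the network, 1 point per gene, with the median of each list as a black bar and candidates in red. The medians lie between -0.17 and 0.38, the highest for a list of 3 genes, and Paf1 and Ccnd2 are the 2 candidates.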

How the data were processed

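The authors made TruSeq RNA v2 libraries, sequenced them on a HiSeq2500, aligned the reads to GRCm38 with TopHat2 2.0.12 (CASAVA 1.8.2 is also named in the submitters' processing notes) and deposited 1 FPKM value per gene and library; the program, gene lengths and strand setting behind FPKM are not given in the sources used here. Of 27179 NCBI gene numbers, 25275 matched a symbol in RefSeq (GRCm38.p6). Whole reads, in lowest terms, were recovered for 100% of the 17083 genes above 0 in at least 2 libraries. Limma 3.58.1 in R 4.3.3 (trend, no covariates) was fitted on log2(FPKM + 0.5) where a gene's FPKM averaged 0.5 or more over the 4 libraries (13230 genes), with Benjamini-Hochberg adjustment. The fit was run on simulated reads of 13057 genes. Of 196 genes changed by 4-fold 98% were called, as were 1.1% of the unchanged ones. Whether smaller changes would be called was not tested, and the largest fold change of a tested member was 1.58, for Mxd1. Exact permutation tests were run in Python 3.11.15. Sequences came from GENCODE M21 and RefSeq. Members and lists were chosen with earlier results of these data known. Named genes were all members, every candidate of a related list and, in a list without candidates, the 2 genes with the lowest p. Alternatives were other pseudocounts (1, 0.1), filters, scalings, variance models, voom, a GC correction, the replicate number as a block and leaving out each library. Some marker genes are not reported here.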

Additional observations from a re-analysis of the deposited data

How the results depend on the processing

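Each tested member rests on at least 135 reads. Replicates differed by more than their Poisson intervals for Myc, Mxd1, Mxd4 and Mga in both groups, for Mxi1 and Mxd3 in WT and for Max in CD274-null. For Mlx and Mnt the intervals overlapped in both. Among the alternatives other than leaving out a library, the 9 tested members had an unadjusted p of at least 0.143 and kept their direction, except that with a GC correction, with or without the replicate block, Mnt turned to -0.17 and Mga to 0.12. The cause was not tested. Leaving out a library gave log2 fold changes from -0.12 to 0.22 for Max, -0.20 to 1.53 for Mxd1, -0.63 to 1.21 for Mxd4, -0.030 to 0.18 for Mnt and -0.21 to 0.086 for Mga, and 0 to 1 candidates among the members. Those of Myc (0.16 to 0.63), Mxd3 (0.02 to 0.96), Mxi1 (-0.34 to -0.08) and Mlx (-0.16 to -0.07) kept their sign. Over all genes, the 480 candidates (316 higher, 164 lower) became 170 in a linear model without moderation and 147 to 634 without a library, and the split was 253 to 210 with equal quantiles and 246 to 196 with equal medians. The 2 candidates of the related lists became 1 with no filter, with equal medians, without trend or with a GC correction, 0 with a mean FPKM of at least 5 or without moderation, and 0 to 5 without a library, with 5 when WT replicate 1 and 4 when WT replicate 2 was left out. Same-numbered libraries did not deviate together (Pearson's r = -0.015 across 13230 genes). The labels do not say what the numbers mean, and a single correlation across genes cannot show whether they mark pairs. With the replicate block 526 genes and 0 members were candidates, and the related lists held 3, all MYC targets, without Paf1. The log2 difference between summed MXD and Myc, -0.26 between the groups, ran from -0.51 to -0.02 without a library, and that between Mxd1 and Mxd4 from -1.42 to 2.15. These differences were not run with voom.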
